A study of Mus musculus with 12 samples.

Results

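The genes described here are 5 members of the CCN family of secreted matricellular proteins (Ctgf, Cyr61, Nov, Wisp1 and Wisp2, also named Ccn2, Ccn1, Ccn3, Ccn4 and Ccn5), 3 further targets of the transcriptional coactivators YAP and TAZ (Ankrd1, Amotl2 and Lats2), and the genes of YAP and TAZ themselves (Yap1 and Wwtr1). They are 10 of the 21556 genes in the deposited table, chosen by name, and all 10 had a mean of at least 1 RPKM (reads per kilobase of exon, scaled to library size) in at least 1 group, as 10890 genes did. RNA was sequenced from primary fibroblasts of abdominal mouse skin in 4 groups of 3 libraries. WT cells came from the strain C57BL/6 and Nox4 KO cells from B6.129-Nox4tm1Kkr/J, in which Nox4 is disrupted in all tissues, so that genotype and strain label go together. According to the study's methods, WT and KO mice descended from crosses of heterozygotes but were bred as separate litters. All cultures were starved of serum, and stimulated cells then received TGF-β2 at 10 ng/ml for 24 h while control cells did not. The age and sex of the animals and the number of animals per culture are not given in the labels for these libraries.

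CCN proteins are secreted into the matrix, where they bind integrins, heparan sulphate proteoglycans and growth factors, and Ctgf is widely used as a marker of fibroblast activation by TGF-β. YAP and TAZ shuttle between cytoplasm and nucleus. In the Hippo pathway the kinases LATS1 and LATS2 phosphorylate them and hold them in the cytoplasm, and in the nucleus they drive transcription through TEAD factors. Ctgf, Cyr61 and Ankrd1 are their classical targets, whereas Amotl2 and Lats2 are targets whose proteins restrain YAP and TAZ.

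TEAD factors recognise a core of 6 bases, GGAATG, or CATTCC when read on the other strand. RefSeq promoter sequence of GRCm38.p6, the build of the counts, was at hand for 6 members. It was searched on both strands over the 250 bases before each start, and 5 of the 6 (Cyr61, Ankrd1, Amotl2, Yap1 and Wwtr1) held a core, against 12.6% of the 32536 distinct windows of all genes. The units differ, since a member counted if any of its windows held a core and the share is per window. Lats2 held none in the windows of its 2 starts. The RefSeq starts of Ankrd1, Amotl2 and Lats2 lie inside the annotated spans of these genes given below, so these windows precede a transcript start within the gene and not its outermost end. The stretch before Cyr61 is shown whole, as the promoter of an abundant classical target, and the other genes by 30 bases around each core. Capitals mark the core, and each sequence reads 5′ to 3′ on the strand of its gene.
Cyr61, chr3:145649986-145650235, minus strand: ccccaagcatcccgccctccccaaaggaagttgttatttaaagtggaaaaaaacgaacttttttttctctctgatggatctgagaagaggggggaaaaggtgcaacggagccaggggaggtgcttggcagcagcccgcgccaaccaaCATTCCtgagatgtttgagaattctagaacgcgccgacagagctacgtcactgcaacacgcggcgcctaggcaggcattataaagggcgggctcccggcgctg
Ankrd1, chr19:36120037-36120066, minus strand: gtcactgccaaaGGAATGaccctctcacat
Ankrd1, chr19:36119950-36119979, minus strand: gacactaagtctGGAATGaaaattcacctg
Amotl2, chr9:102717727-102717756, plus strand: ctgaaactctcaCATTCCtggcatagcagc
Yap1, chr9:8004720-8004749, minus strand: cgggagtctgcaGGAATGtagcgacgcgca
Wwtr1, chr3:57576029-57576058, minus strand: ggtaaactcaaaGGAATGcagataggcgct
Counted from the start, the first base of the core lay at -103 for Cyr61, -210 and -123 for Ankrd1, -65 for Amotl2, -141 for Yap1 and -136 for Wwtr1. Genes with a core included ones that rose after TGF-β2 (Cyr61 in WT, Ankrd1), one that fell (Amotl2) and ones that did not pass the test (Yap1, and Wwtr1 in the unpaired edgeR fit), as described below. A match is a description of the letters and not evidence of a binding site.

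Each library held between 35118344 and 43796260 counted reads, and the members had between 301 and 340781 reads per library. The 8 fibroblast markers examined were all expressed, with a summed level of 4092 to 6956 RPKM, while Pdgfra was between 2.82 and 49.97 RPKM. The markers of keratinocytes (0 of 5), adipocytes (0 of 4), and Schwann cells and melanocytes (0 of 5) had no mean above 1 RPKM in any group. Myeloid markers did in 5 of 6 cases, with a summed level of 12.4 to 108 RPKM that was largely Lyz2. Of 4 endothelial markers 1, Kdr, had a mean above 1 RPKM, and the list summed to 1.67 to 5.38 RPKM. Of 5 pericyte and smooth-muscle markers 3 did, with sums of 46.7 to 59.1 RPKM in WT control, 37.5 to 58.5 in WT with TGF-β2, 53.6 to 58.7 in KO control and 60.0 to 75.1 in KO with TGF-β2. Within that list Cspg4 had means of 6.84 RPKM in WT control and 30.5 RPKM after TGF-β2, Myh11 of 40.9 and 18.2 RPKM and Notch3 of 4.42 and 1.04 RPKM. In KO the means before and after TGF-β2 were 10.6 and 39.3 RPKM for Cspg4, 42.2 and 25.2 RPKM for Myh11 and 3.23 and 1.12 RPKM for Notch3, and the part of these genes in the results was not tested. Nox4 itself measured 1.31 to 2.42 RPKM in WT control, 8.56 to 16.3 in WT with TGF-β2, 0.636 to 1.399 in KO control and 4.39 to 6.85 in KO with TGF-β2. The KO libraries were therefore below the WT libraries without overlap only after TGF-β2, and the counts per gene do not separate the disrupted part of Nox4. One stimulated WT library, replicate 2, stood apart, since its 787 genes with exons of at least 8000 bases deviated from their group mean by a median of -0.40 (log2), against -0.07 to 0.27 in the other libraries. Among stimulated WT libraries it was the lowest for Wisp1, Amotl2, Lats2 and Wwtr1 and the highest for Ctgf, Cyr61, Wisp2 and Ankrd1. In RNA from whole cultures, fewer cells of a type and less RNA per cell cannot be told apart.

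**Figure D1:**
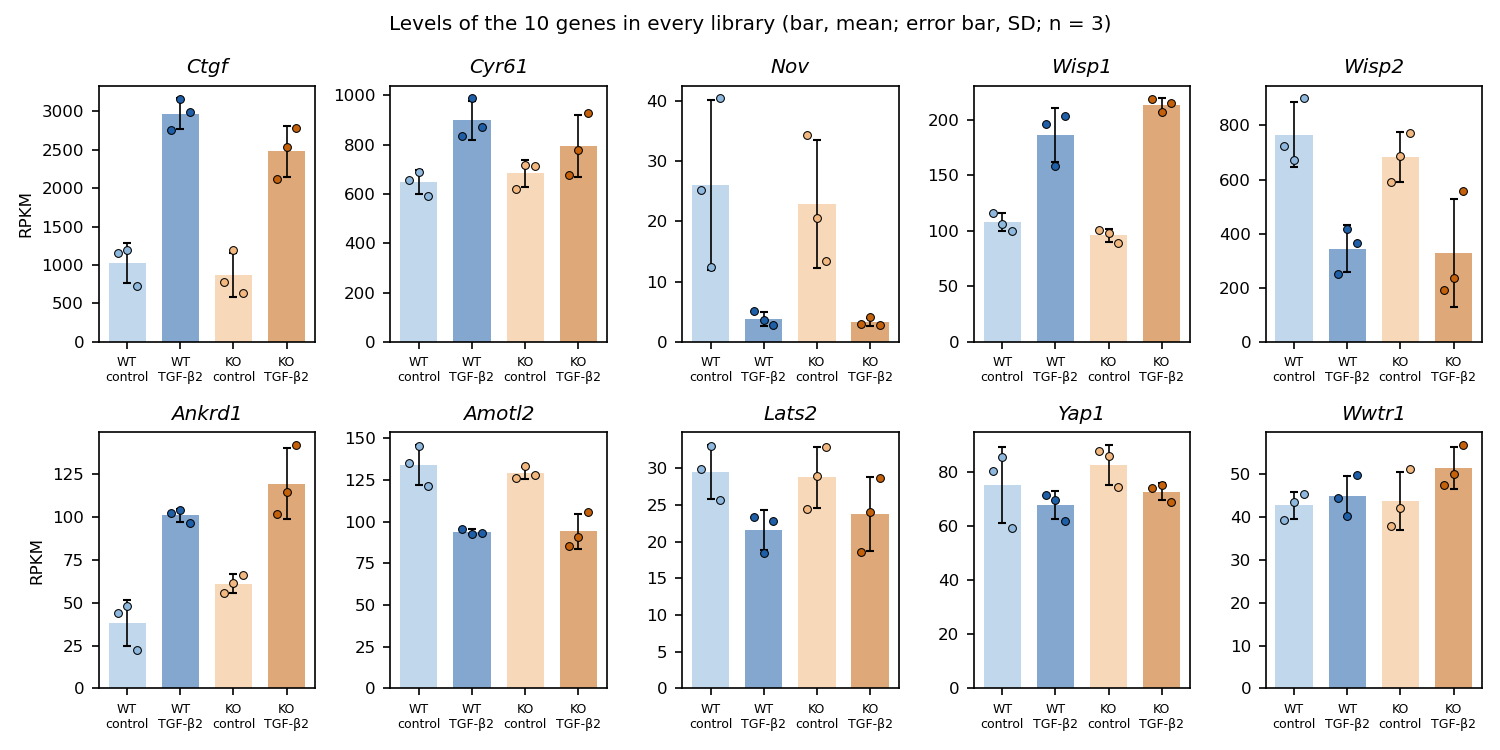
Level of each of the 10 genes in RPKM (y axis, from 0) in the 4 groups (x axis). Bars are group means, error bars the SD over 3 libraries and points the libraries; Ctgf, Wisp1 and Ankrd1 stand higher and Nov, Wisp2 and Amotl2 lower after TGF-β2 in WT and KO cells alike.

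To describe how the family responded to TGF-β2, stimulated and control libraries were compared within each genotype by edgeR's quasi-likelihood test, in which a gene passed at a Benjamini-Hochberg adjusted p under 0.05 at any fold. In WT fibroblasts 7 of the 10 genes passed: Ctgf, Cyr61, Wisp1 and Ankrd1 rose, and Nov, Wisp2 and Amotl2 fell. Of all 10743 genes tested, 22.9% passed, 10.6% higher and 12.3% lower. In Nox4 KO fibroblasts 5 of 10 passed, with Ctgf, Wisp1 and Ankrd1 higher (15.2% of all genes) and Nov and Amotl2 lower (15.0%), against 30.3% of 10809 genes in either direction. Same-numbered KO libraries deviated together across genes, and in a fit that pairs them 9 of the 10 genes passed, 5 higher and 4 lower, when 54.0% of all genes did. Same-numbered WT libraries correlated less evenly, by 0.0749, 0.435 and 0.531. Pairing them in the same way changed no member's call in WT. DESeq2, without pairing, passed 7 members in KO, adding Wisp2 and Wwtr1, when it passed 4070 of all 10809 genes. The median size of the log2 fold change was 0.67 over the 10 genes in both genotypes, and 0.26 (WT) and 0.23 (KO) over all genes tested. The 10 genes were chosen with earlier results of these data known, so these comparisons with all genes are descriptions only. Scaled to library totals, the libraries of the 2 conditions did not overlap for 8 members in WT (45.2% of all genes) and for 6 in KO (48.5%). After TMM scaling over all 12 libraries, Lats2 in WT and Wisp2 in KO overlapped and Wwtr1 in KO no longer did. The labels do not say whether replicates came from separate animals, so p-values measure only the spread between these libraries. Without stimulated WT replicate 2 the same 7 members passed in WT, 4 higher and 3 lower. An exact permutation test of 3 libraries against 3 could not go below 0.1 and was not used.

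Ctgf (ENSMUSG00000019997, chr10:24595442-24598683), a profibrotic CCN protein, was the most abundant of the 10 genes in every group by mean RPKM. It measured 1155, 1190 and 731 RPKM in the 3 WT control libraries and 2761, 3158 and 2991 RPKM in the stimulated ones. In KO it measured 783, 1194 and 634 RPKM in control and 2122, 2535 and 2781 RPKM after TGF-β2. Every stimulated library of both genotypes was above every control library. The log2 fold change was 1.57 (SE 0.23, adjusted p = 0.00506) in WT and 1.59 (SE 0.27, adjusted p = 0.0100) in KO, both about a tripling (2.96-fold and 3.01-fold). By mean RPKM over all genes, Ctgf moved from rank 21 to rank 5 in WT and from rank 24 to rank 7 in KO. The levels after TGF-β2 overlapped between WT and KO, and so did those in control. A non-coding transcript annotated on the opposite strand, Gm15270, overlaps Ctgf, and whether the counting used strand is not stated.

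Cyr61 (ENSMUSG00000028195, chr3:145646976-145649981), an immediate-early CCN protein that binds integrins, responded less. Its levels were 659, 689 and 593 RPKM in WT control and 836, 989 and 871 RPKM in WT with TGF-β2, so that the conditions were apart. The rise was 1.42-fold, or 0.51 on the log2 scale (SE 0.12, adjusted p = 0.0256), and its adjusted p moved to between 0.0513 and 0.0859 when any WT control library or stimulated replicate 1 was left out. In KO the levels were 622, 717 and 713 RPKM in control and 676, 778 and 928 RPKM after TGF-β2, which overlapped. The KO difference of 0.30 (log2, SE 0.13) did not pass (adjusted p = 0.130), whereas with the libraries paired it was 0.29 (SE 0.079) and passed (adjusted p = 0.0273). All 3 same-numbered KO pairs were higher after TGF-β2, by 0.22, 0.22 and 0.51 (log2, after TMM scaling, unlike the RPKM above). The WT and KO responses were not shown to differ (interaction -0.19, 95% confidence interval -0.58 to 0.19).

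Wisp1 (ENSMUSG00000005124, chr15:66891320-66923201), a CCN protein first described as Wnt-inducible, rose in both genotypes. It measured 116, 107 and 100 RPKM in WT control and 196, 158 and 204 RPKM in WT with TGF-β2. In KO it measured 100, 98.3 and 89.4 RPKM in control and 218, 207 and 215 RPKM after TGF-β2, the tightest of the stimulated groups relative to its mean among the CCN genes. The log2 fold change was 0.83 (SE 0.14, adjusted p = 0.00834) in WT and 1.24 (SE 0.078, adjusted p = 0.00121) in KO. After TGF-β2 all 3 KO libraries were above all 3 WT libraries, while in control the order of the means was opposite and the libraries overlapped. The difference between the responses, 0.42 (log2, SE 0.17, 95% confidence interval 0.04 to 0.80), was the only interaction of the 10 genes with an unadjusted p under 0.05. It did not pass in the edgeR fit across all genes (adjusted p = 0.850).

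Nov (ENSMUSG00000037362, chr15:54745702-54754039), a CCN protein often described as opposing Ctgf, showed the largest fold change of the 10 genes in both genotypes. Its control levels were 25.3, 12.4 and 40.5 RPKM in WT and 34.4, 20.6 and 13.5 RPKM in KO. After TGF-β2 they were 5.08, 3.61 and 2.82 RPKM in WT and 3.01, 4.09 and 2.77 RPKM in KO. No stimulated library reached the lowest control library of either genotype. Nov fell by 2.71 on the log2 scale in both, to 0.153 and 0.152 of control (WT SE 0.44, adjusted p = 0.00721, and KO SE 0.38, adjusted p = 0.00619). The fold changes rest on control groups that varied widely, with an SD of 14.1 RPKM around a mean of 26.1 in WT and of 10.6 around 22.8 in KO. Lyz2, the leading myeloid marker, measured 33.7, 17.996 and 90.8 RPKM in WT control replicates 1 to 3 and 69.7, 23.0 and 14.7 RPKM in KO control, the same order of libraries as Nov within each control group. After TGF-β2 Lyz2 measured 25.3, 15.1 and 62.3 RPKM in WT and 51.0, 17.7 and 9.43 RPKM in KO, where the order differed from that of Nov, and its part in the Nov levels was not tested.

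Wisp2 (ENSMUSG00000027656, chr2:163820861-163833146), which lacks the carboxy-terminal domain of the other family members, was as abundant as Cyr61 in control cells, with group means of 766 RPKM in WT and 683 RPKM in KO. It measured 724, 672 and 901 RPKM in WT control and 250, 418 and 365 RPKM after TGF-β2. The fall of 1.11 on the log2 scale passed (SE 0.20, adjusted p = 0.00905). In KO it measured 590, 686 and 772 RPKM in control and 192, 235 and 556 RPKM after TGF-β2. The KO conditions did not overlap in RPKM, but they did after TMM scaling over all 12 libraries. Stimulated replicate 3 stayed close to the control level, and the difference of -0.98 (log2, SE 0.40) did not pass (adjusted p = 0.112). With the KO libraries paired the difference was -1.13 (SE 0.24) and passed (adjusted p = 0.0127), the pairs giving -1.52, -1.45 and -0.35 after TMM scaling. Without pairing, it passed with DESeq2 (adjusted p = 0.0239), and with edgeR when KO stimulated replicate 3 was left out (-1.59, adjusted p = 0.00402). That library was also the highest of its group for Ctgf, Cyr61, Ankrd1, Amotl2, Lats2 and Wwtr1.

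Because Ctgf rose while Wisp2 fell, the composition of the family shifted. On the RPKM scale, which is per length, the 5 CCN genes summed to 2366 to 2679 RPKM in WT control and 4049 to 4726 after TGF-β2, and to 2130 to 2717 and 3212 to 4483 in KO. Ctgf made up 30.9 to 44.6% of that sum in WT control and 66.8 to 68.2% after TGF-β2. In KO it made up 28.5 to 43.96% and 62.0 to 67.4%. Cyr61 contributed 24.6 to 25.8% in WT control and 19.6 to 20.9% after TGF-β2. The sixth family member, Wisp3, had no read in 5 libraries and at most 2 in any other, and 3 counts would correspond to at most 0.0602 RPKM, so no fold is given.

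**Figure D2:**
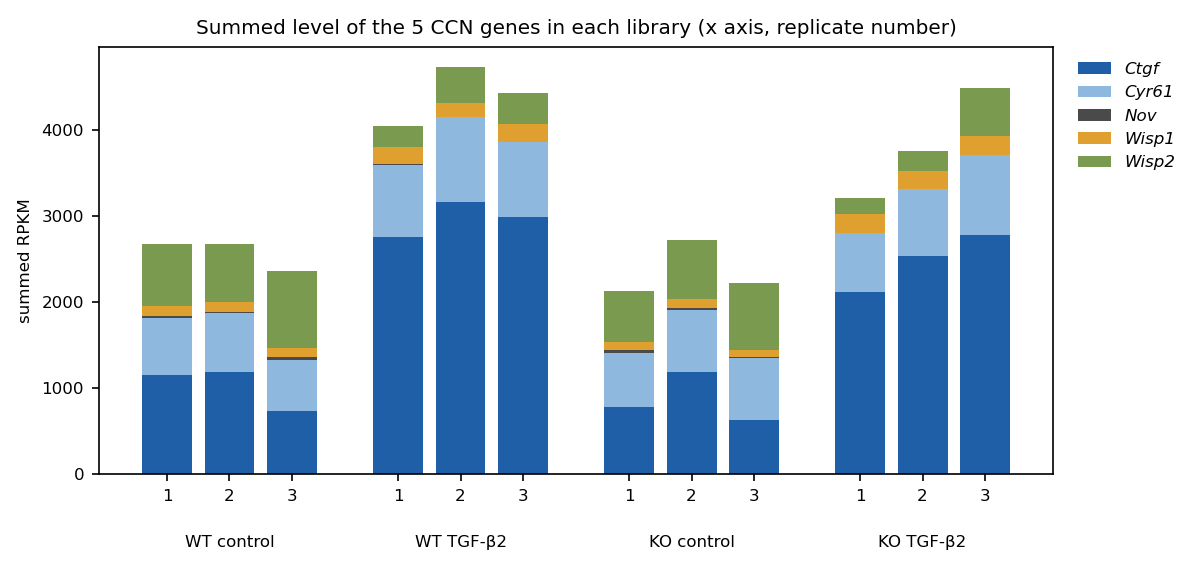
Summed level of the 5 expressed CCN genes in RPKM (y axis, from 0) in each of the 12 libraries (x axis, replicate number within group), stacked by gene. Ctgf takes 28.5 to 44.6% of the sum in the 6 control libraries and 62.0 to 68.2% in the 6 stimulated ones.

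Among the intracellular targets, Ankrd1 (ENSMUSG00000024803, chr19:36111961-36120099), a mechanosensitive ankyrin-repeat protein also found in muscle, rose in both genotypes. It measured 44.1, 47.8 and 22.5 RPKM in WT control and 102, 104 and 96.6 RPKM with TGF-β2. In KO it measured 55.7, 61.3 and 66.4 RPKM in control and 102, 114 and 142 RPKM with TGF-β2. Stimulated and control libraries were apart in both genotypes. The log2 fold change was 1.44 (SE 0.28, adjusted p = 0.0135) in WT and 1.05 (SE 0.13, adjusted p = 0.00459) in KO. The muscle genes Ckm, Myod1, Myog, Myh6 and Actc1 were between 0 and 0.121 RPKM in every library, and 2 of 8 muscle markers, Des and Tnnt2, had a mean above 1 RPKM.

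Amotl2 (ENSMUSG00000032531, chr9:102716672-102733418), an angiomotin that holds YAP at junctions and in the cytoplasm, moved the other way although it is itself a YAP target. It measured 135, 146 and 121 RPKM in WT control and 95.8, 92.7 and 93.4 RPKM after TGF-β2, and in KO 126, 133 and 128 RPKM and 85.5, 90.8 and 106 RPKM. All stimulated libraries lay below all control libraries. The falls were modest, at -0.47 (log2, SE 0.11, adjusted p = 0.0235) in WT and -0.37 (SE 0.090, adjusted p = 0.0265) in KO. They did not pass in WT without control replicate 1 or 2 or stimulated replicate 1 or 3 (adjusted p from 0.0568 to 0.0994), nor in KO without replicate 1 or 2 of either condition (0.0711 to 0.104). Paired, the KO fall passed with an adjusted p of 0.0109.

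Lats2 (ENSMUSG00000021959, chr14:57689662-57758388), the Hippo kinase that YAP and TAZ induce as feedback, did not pass in either genotype in the unpaired edgeR fits. Its levels were 29.97, 33.0 and 25.6 RPKM in WT control and 23.4, 18.4 and 22.8 RPKM after TGF-β2 (log2 difference -0.41, SE 0.15, adjusted p = 0.0944). These levels did not overlap in RPKM but did after TMM scaling over all 12 libraries. In KO they were 24.5, 29.0 and 32.9 RPKM and 18.6, 24.0 and 28.7 RPKM, which did overlap (-0.19, SE 0.17, adjusted p = 0.434). Within each KO pair the stimulated library was the lower one, by 0.29, 0.17 and 0.07 (log2, after TMM scaling). The paired fit passed at -0.20 (SE 0.056, adjusted p = 0.0296). A protein-coding gene model on the same strand, Gm49361, overlaps Lats2 and has no row of its own in the table, so the Lats2 counts are uncertain to that extent.

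Neither coactivator gene passed in the unpaired edgeR fits on all 6 libraries of a genotype. Yap1 (ENSMUSG00000053110, chr9:7931999-8004596) was between 59.1 and 87.8 RPKM over all 12 libraries, with log2 differences after TGF-β2 of -0.11 in WT (95% confidence interval -0.51 to 0.28, adjusted p = 0.655) and -0.10 in KO (-0.32 to 0.12, adjusted p = 0.438). Yap1 was the single member that did not pass in any of the fits above. Wwtr1 (ENSMUSG00000027803, chr3:57455649-57575910), the gene of TAZ, measured 39.2, 43.5 and 45.4 RPKM in WT control and 44.4, 40.2 and 49.9 RPKM with TGF-β2, a difference of 0.11 (-0.15 to 0.37, adjusted p = 0.494). In KO it measured 38.0, 42.2 and 51.2 RPKM in control and 47.5, 49.97 and 56.9 RPKM with TGF-β2. These overlapped in RPKM but not after TMM scaling over all 12 libraries, and the difference was 0.32 (SE 0.12, edgeR adjusted p = 0.0840). After that scaling every pair was higher with TGF-β2, by 0.43, 0.34 and 0.28 (log2). The paired fit passed at 0.33 (SE 0.048, adjusted p = 0.00366). Without pairing, Wwtr1 also passed with DESeq2 (0.32, adjusted p = 0.0419) and with edgeR when KO control replicate 3 was left out (0.43, adjusted p = 0.0313). In every library Yap1 exceeded Wwtr1 per length, by a ratio of 1.21 to 2.31.

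**Figure D3:**
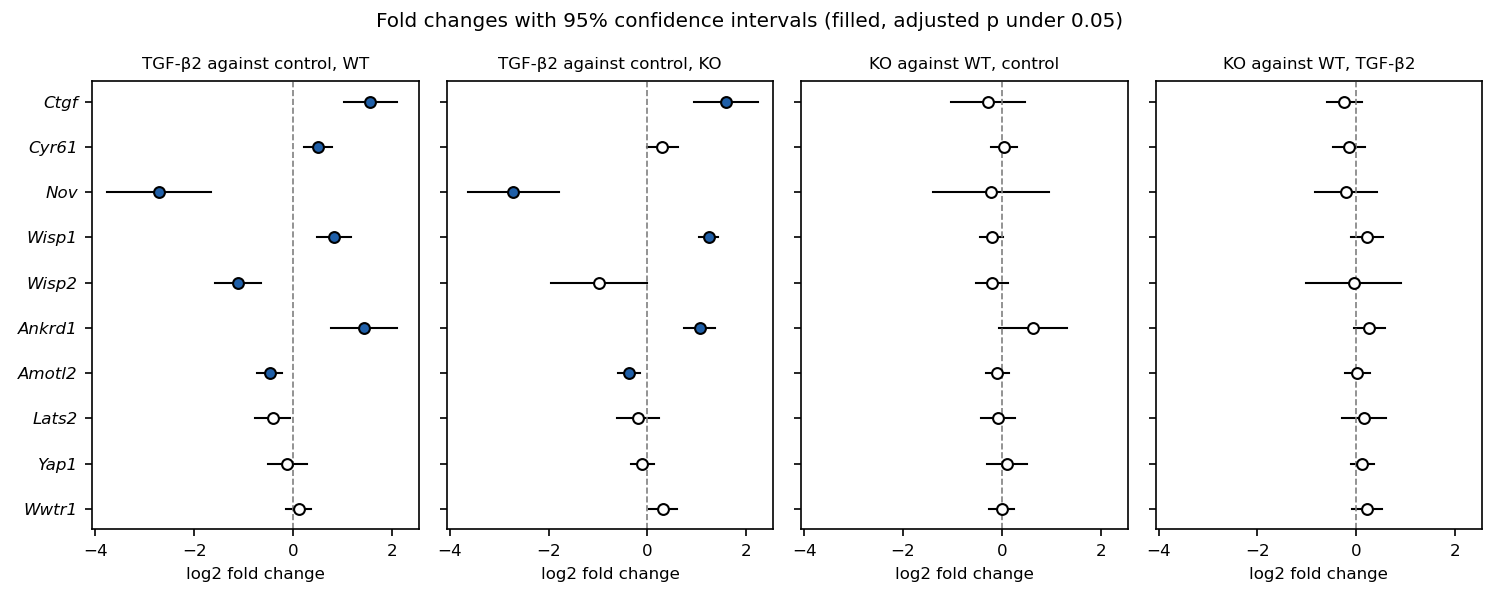
Log2 fold change (x axis) of each of the 10 genes (y axis) in 4 comparisons, with 95% confidence intervals from edgeR. Filled points passed at an adjusted p under 0.05, 7 for TGF-β2 in WT, 5 in KO and 0 in the comparisons of KO with WT.

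To ask whether loss of Nox4 changed these genes, KO was compared with WT in control and after TGF-β2. None of the 10 passed with edgeR in either comparison, as 0 of 10767 and 0 of 10439 genes did. At an unadjusted p under 0.05 there were 596 and 336 genes, none of them a member, and DESeq2 passed 28 and 16 genes, with 0 members. The intervals bound the differences that these libraries could have hidden. In control they ran from -0.22 to 0.30 (log2) for Cyr61 and from -0.26 to 0.26 for Wwtr1, but from -1.39 to 0.96 for Nov and -1.02 to 0.47 for Ctgf. After TGF-β2 they were -0.59 to 0.11 for Ctgf and -0.23 to 0.27 for Amotl2, and widest for Wisp2 at -1.01 to 0.91. Each group enters more than 1 of these comparisons, so their values are not independent of each other.

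The member that differed most between genotypes in control was Ankrd1. All 3 KO libraries (55.7 to 66.4 RPKM) were above all 3 WT libraries (22.5 to 47.8 RPKM), a difference of 0.63 (log2, SE 0.28, interval -0.06 to 1.32, adjusted p = 0.830). It was the single member whose control groups did not overlap, while 13.6% of all genes had such groups. The lowest value, 22.5 RPKM, came from WT control replicate 3, and leaving out single libraries gave 0.35 to 0.84. After TGF-β2 the difference was 0.26 (interval -0.05 to 0.57), and Wisp1 was then the single member whose groups did not overlap, against 10.1% of all genes. The summed muscle markers were 3.26 to 9.05 RPKM in WT control and 6.62 to 11.8 RPKM in KO control, and their part in the Ankrd1 difference was not tested. No member passed for the interaction of genotype and TGF-β2 (0 of 10890 genes with edgeR, 290 of them at an unadjusted p under 0.05, and 6 genes with 0 members by DESeq2). The interaction intervals were -0.76 to 0.83 for Ctgf, -1.34 to 1.36 for Nov and -0.20 to 0.43 for Amotl2.

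Other genes of the pathway were taken from lists written by hand. Of 16 tested genes that are further YAP/TAZ targets, 3 rose and 2 fell in WT, against 22.9% of all genes in either direction. Nuak2, a kinase of the AMPK family, rose most (1.94, SE 0.15, adjusted p = 0.000685), from a mean of 11.3 to 42.4 RPKM. Dock5, an activator of Rac, rose by 1.09 and the forkhead factor Foxf2 by 0.81, while Asap1 and Rbms3 fell. In KO 3 rose (Nuak2 by 1.75, Dock5 by 1.33 and the receptor kinase Axl by 0.31) and Arhgef17 fell by 0.41, against 30.3% of all genes. The paired KO fit passed 5 higher and 5 lower, against 54.0%. The median log2 fold change of the list was -0.15 in WT and 0.04 in KO. The WT count was 1 without control replicate 1 or 3 and 2 without control replicate 2 or stimulated replicate 1. The KO count was 2 without replicate 1 of either condition and 1 without stimulated replicate 2. In these 4 WT settings, and in KO without stimulated replicate 2, no gene of the list passed as lower.

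Of 29 tested genes of the Hippo pathway and TEAD family, 2 rose and 2 fell in WT, which is 4 of 29 against 22.9% of all genes. Ajuba, a LIM protein that binds LATS kinases, rose by 1.03 (SE 0.15, adjusted p = 0.00486) and Rassf1 by 0.51. The atypical cadherin Fat4 fell by 1.49 (SE 0.34, adjusted p = 0.0214) and the scaffold Sav1 also fell. In KO 8 rose and 4 fell, against 30.3% of all genes, and the paired fit passed 10 higher and 5 lower, against 54.0%. The KO genes with the largest changes were Tead4 (0.90), Fat4 (fell by 0.87), Ajuba (0.79), Wwc2 (0.65), Amotl1 (0.50) and Stk4 (0.50), from the unpaired fit. Ajuba, Rassf1, Fat4 and Sav1 passed in the same direction in both genotypes. The WT count was 9 without stimulated WT replicate 2, the library with low long transcripts, where Fat4 was also lowest at 0.744 RPKM, and 2 without control replicate 1 or 3 or stimulated replicate 1. The KO count was 4 without control replicate 1 or 2, 6 without stimulated replicate 1 and 2 without stimulated replicate 2.

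The TEAD genes differed in level and response. Tead1 was the most abundant, with group means of 48.4 to 57.6 RPKM, and did not pass in either genotype (adjusted p = 0.644 in WT and 0.276 in KO). Tead3 had group means of 28.0 to 34.1 RPKM and did not pass either. Tead2 measured 16.8 ± 1.16 RPKM in KO control and 11.3 ± 1.44 RPKM in KO with TGF-β2 (SD, n = 3) and fell by 0.48 (edgeR adjusted p = 0.0194), with -0.49 in WT (adjusted p = 0.156). Tead4, the least abundant, had means of 1.32 RPKM in KO control and 2.32 RPKM after TGF-β2 and rose there (adjusted p = 0.0308), with 0.74 in WT (adjusted p = 0.0534).

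Of 9 tested receptors that bind CCN proteins, 3 rose and 2 fell in each genotype, against 22.9% (WT) and 30.3% (KO) of all genes. These counts and the values below are from the unpaired fits. The paired KO fit passed 4 higher and 2 lower, against 54.0%. Itga5, the α5 integrin subunit of the fibronectin receptor, rose from 319 ± 87.9 to 843 ± 58.1 RPKM in WT and from 315 ± 86.9 to 805 ± 119 RPKM in KO (SD, n = 3), a log2 fold change of 1.44 in each genotype (adjusted p = 0.00730 and 0.0109 by edgeR). The other genes that rose were Itgb3 (1.55) and Itga6 (1.08) in WT, and Itgav (1.12) and Itgb1 (0.40) in KO. Itgb3 and Itga6 had fold changes in KO of 1.87 and 1.19 that did not pass (adjusted p = 0.114 and 0.0641), and Itgav had 0.54 in WT (adjusted p = 0.108). Sdc4, a heparan sulphate proteoglycan, fell by 1.25 in WT and by 1.52 in KO, and Lrp6, a Wnt coreceptor that binds Ctgf, fell by 0.93 and by 0.63. In all 3 lists no gene passed for KO against WT or for the interaction with edgeR, and none did with DESeq2 among the targets and the Hippo genes. An unadjusted p under 0.05 was found for Sav1 and Lats1 in control, for Fjx1 and Itga6 after TGF-β2, and for Sav1 and Itgav in the interaction.

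**Figure D4:**
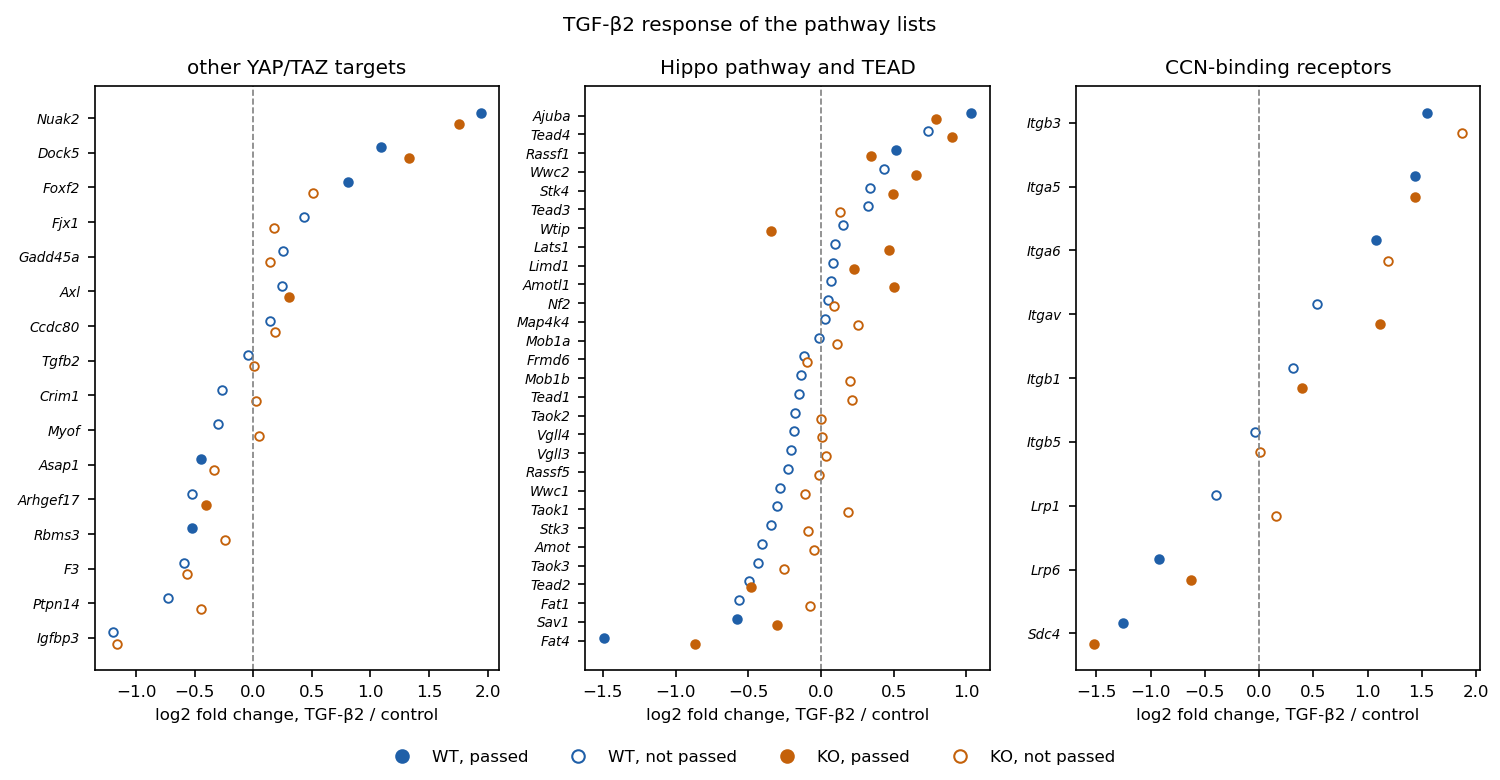
Log2 fold change after TGF-β2 (x axis) for the tested genes (y axis) of 3 lists, in WT (blue) and KO (orange). Filled points passed at an adjusted p under 0.05, and each list holds genes on both sides of 0.

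The members were also compared library by library. After subtracting each group's mean, the log2 CPM values of 45 pairs of members were correlated over the 12 libraries, which share depth, culture and, in KO, replicate pairs, so these values are descriptions. The 5 targets Ctgf, Cyr61, Ankrd1, Amotl2 and Lats2 had positive correlations in all 10 of their pairs, from 0.39 to 0.87, and 31 of the 45 pairs of members were positive. Ankrd1 and Amotl2 had r = 0.87, and 0.230% of all tested genes followed Ankrd1 at least as closely. For the 10 pairs this share ran from 0.230% to 17.1%, the highest being that of Ctgf and Lats2, followed by 8.19% for Cyr61 and Lats2. Amotl2 and Lats2 had 0.79, Ctgf and Amotl2 0.76. Within groups, libraries high in Ctgf thus tended to be high in Amotl2, whereas TGF-β2 moved these genes in opposite directions. Nov had negative values with Ankrd1 (-0.61) and Wwtr1 (-0.53), and Yap1 with Wwtr1 (-0.50). With Ctgf, Cyr61, Ankrd1, Amotl2 and Lats2, in that order, Yap1 had 0.70, 0.29, 0.70, 0.59 and 0.18. With the same genes Wwtr1 had -0.18, 0.26, 0.12, 0.22 and 0.70. Values as high as many of those among the 5 targets were thus also found outside them. WT control replicate 3 was the lowest library of its group for all 5 targets.

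**Figure D5:**
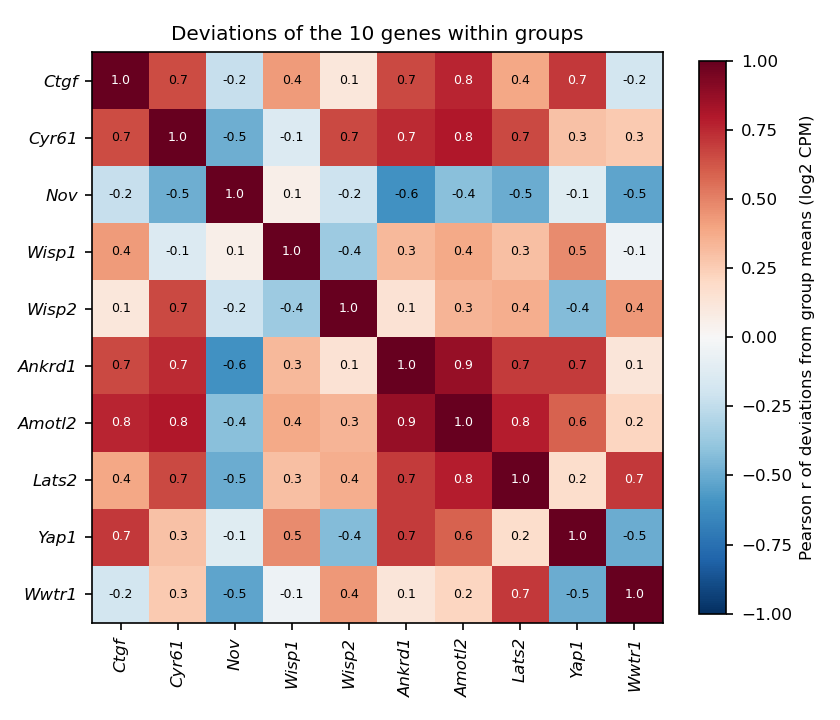
Pearson r between pairs of the 10 genes (both axes), computed from deviations of log2 CPM from group means over 12 libraries, with colour from -1 (blue) to 1 (red). Ctgf, Cyr61, Ankrd1, Amotl2 and Lats2 have r of 0.39 to 0.87 with each other.

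Over all 12 libraries, without subtracting group means, Csrnp1 was among the genes most like Ctgf (r = 0.99, and 0.91 within groups). For Wisp2 the most similar genes were the death receptor Fas (0.99, and 0.98 within groups) and Scel (0.98 and 0.95). For Wisp1 they were Creb3l2 and Tg and for Nov Galk2 and Hps1, while Cgref1 was among those most like Cyr61. For Ankrd1 they were the cytokine gene Csf3 and Dvl1, and for Amotl2 Cds2 and Klhl5. Lats2 was followed most closely by Wdr11 and Ttl, Yap1 by Ormdl1 and Hs2st1, and Wwtr1 by Magt1 and Galnt7. For these 10 genes the values over 12 libraries were between 0.92 and 0.99. No member was the closest or second closest gene of another member.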

How the data were processed

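RNA of 12 libraries from WT and Nox4 KO primary skin fibroblasts was analysed, 3 per group, with groups and replicate numbers from the labels. Per the labels and the study's methods, the authors mapped single-end reads with STAR 2.4 to GRCm38, kept uniquely mapping reads only, and ran featureCounts 1.4.6 over the exons of protein-coding isoforms, merged per gene. The deposited values are these raw counts for 21556 genes, and use of strand is not stated. All columns were assigned to a sample.

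RPKM used each count, the merged exon length of the gene (from protein-coding transcripts for 21099 genes, from all transcripts for 457) and the library total, 35118344 to 43796260. A count of 0 allows up to 3 counts, for counting error only. Symbols and positions came from GENCODE. Genes with a mean of at least 1 RPKM in a compared group were tested with edgeR 4.0.16 (R 4.3.3, limma 3.58.1) by its quasi-likelihood test (non-legacy fit) after TMM normalization, with Benjamini-Hochberg adjustment over all genes tested. Each comparison was fitted on its own 6 libraries and the interaction on all 12. The standard error was derived from the F statistic. The procedure was tested on simulated counts.

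The members and lists were chosen with earlier results of these data known. All members are named, with, per list and comparison, up to 6 genes of largest fold change among those that passed, Tead1 to Tead4, and per member the 2 genes with the highest Pearson r of log2 CPM over 12 libraries, of which 1 each for Ctgf and Cyr61 is not reported here. Genes named where they did not pass or beyond these 6 were added after their values were seen. In KO, the deviations from the group means correlated between same-numbered control and stimulated libraries (r of 0.775, 0.683 and 0.748), which is where the pairing comes from, as the labels do not state it. The alternatives were DESeq2 1.42.0, 3 other scalings, 3 other filters, a replicate block, fits over all 12 libraries, a fold limit of 2, and leaving out each library. The legacy quasi-likelihood fit was added after seeing the data.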

Additional observations from a re-analysis of the deposited data

How the results depend on the processing

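For the 10 genes, all directions of the TGF-β2 response were kept under every setting except that of Yap1 in WT, which was -0.25 to 0.0187 (log2) when single libraries were left out. DESeq2 passed 10 of 16 further targets and 8 of 29 Hippo genes in WT, against 3383 of all 10743 genes. In KO it passed 7 of the 10 members, against 4070 of all 10809 genes. A filter by filterByExpr gave 7 Hippo genes in WT, and fitting all 12 libraries gave 9 in WT and 7 in KO. At a fold of at least 2, the counts were 4 members, 2 further targets and 2 Hippo genes in WT, and 2 further targets and 0 Hippo genes in KO. Same-numbered WT libraries correlated by 0.0749, 0.435 and 0.531, so whether they are paired is not settled. With the replicate block, 8 further targets and 7 Hippo genes passed in WT. In KO the replicate block gave 9 members and 10 further targets, when 54.0% of all genes passed. The block changed no call of KO against WT, where the numbers do not pair the samples. Leaving out single libraries gave 1 to 6 further targets and 2 to 9 Hippo genes in WT, and 1 to 6 and 2 to 11 in KO. Among these settings, the share of all genes that passed is given only for DESeq2 and the KO block. Counts under the other settings, here and above, cannot be read against such a share. Library totals without scaling factors moved the median of all genes in KO to -0.10 (log2), from -0.01. No difference whose sign turned had passed. Wwtr1 in KO against WT control was 0.0330 with upper-quartile factors and 0.0357 with totals only. The interaction of Ctgf was -0.0117 and -0.0240, that of Yap1 -0.0257 and -0.0373, and that of Nov -0.0467 and -0.0332 with these 2 scalings. With no filter the interactions of Nov and Yap1 were -0.0206 and -0.0020. That of Nov was -0.0017 with RLE factors, -0.0014 with DESeq2, -0.0053 with filterByExpr, -0.0084 with a mean of 1 RPKM over all libraries compared and -0.0178 with the replicate block. Without single libraries, KO against WT in control ran from -0.0396 to 0.0990 for Cyr61, -0.64 to 0.22 for Nov, -0.19 to 0.0184 for Lats2, -0.0653 to 0.21 for Yap1 and -0.12 to 0.0839 for Wwtr1. After TGF-β2 it ran from -0.40 to 0.0830 for Nov, -0.66 to 0.22 for Wisp2 and -0.0662 to 0.0829 for Amotl2. The interaction ran from -0.17 to 0.35 for Ctgf, -0.44 to 0.43 for Nov, -0.46 to 0.43 for Wisp2 and -0.0824 to 0.17 for Yap1. The cause of these changes was not tested. Depth was at least 301 reads per member and library.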
